A study of Mus musculus with 24 samples.

Results

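A set of 10 genes of adipocyte differentiation, lipid handling and insulin-like growth factor (IGF) binding, namely Cebpb, Fabp4, Fabp5, Acsl3, Elovl6, Insig2, Lpin3, Igfbp2, Igfbp5 and Asip, were followed in the DNA methylome of infant brown adipose tissue (BAT). The data for them were the MspI fragments that the authors' annotation assigns to these gene names, 186 of the 65535 fragments in the table, with at least 1 fragment for 9 of the 10 genes. Of these, 75 of 186 passed the filter on calls, as did 20225 of all fragments. The DNA came from interscapular BAT of female C57BL/6J pups at PND 12, pooled from several female littermates, so that a library stands for a litter. The 12 VEH litters were born to dams gavaged with olive oil, and the 12 DDT litters to dams gavaged with o,p'-DDT together with p,p'-DDT in olive oil from mid-gestation into the first postnatal week. BAT is a mixed tissue, and a methylation level cannot tell a change within brown adipocytes from a change in the share of other cells. Methylation gives no expression level, so the tissue label could not be checked against marker genes.

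Cebpb encodes an early transcription factor of the adipogenic cascade, which acts before the master regulator of fat cells is switched on. Fatty acids that enter the cell are bound by the carrier proteins Fabp4 and Fabp5, activated to acyl-CoA by enzymes such as Acsl3 and lengthened by Elovl6, while Insig2 holds back the sterol-sensing activators of lipid synthesis and Lpin3, a lipin, makes diacylglycerol on the way to triglyceride. Igfbp2 and Igfbp5 bind IGFs outside the cell, and Asip, the agouti protein, blocks melanocortin receptors. In mammalian DNA, CpG-rich promoters are as a rule free of methylation and most other CpGs carry it.

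In reduced representation bisulfite sequencing (RRBS), DNA is cut by MspI at CCGG, and bisulfite converts cytosines that carry no methyl group. The methylation level is the percentage of CpG calls in a fragment that were methylated. The 24 libraries held from 8371958 to 14124652 calls over the table, and 25948 to 61977 calls in the 75 tested member fragments. DDT replicate 4 stood apart: it had a level at 42 of the 75 fragments, against 62 to 75 in the other 23 libraries, and its mean level over all tested fragments was 16.9%, against 28.4% to 34.2%. The value of 28.4% belonged to DDT replicate 12, and the other 22 libraries were at 31.5% or higher. Results that rest on DDT replicate 4 are therefore given with and without it.

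The sequences of the fragments on which the description turns are written 5′ to 3′ on the + strand of GRCm38, with each CpG in capitals. A CpG-dense fragment just before the Cebpb start and a CpG-poorer one before the Fabp5 start are set beside the tested fragment within Fabp4, near its start.
Cebpb, chr2:167688777-167688854: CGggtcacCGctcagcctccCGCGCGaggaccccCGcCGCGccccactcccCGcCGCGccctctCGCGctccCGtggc
Fabp5, chr3:10012421-10012482: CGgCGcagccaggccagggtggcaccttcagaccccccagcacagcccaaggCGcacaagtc
Fabp4, chr3:10208374-10208409: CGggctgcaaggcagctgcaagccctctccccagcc

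Next are neighbours that share a cut site or lie close together and yet differed in level: the pair upstream of Igfbp2 and 3 neighbours in the first intron of Elovl6.
Igfbp2, chr1:72770251-72770297: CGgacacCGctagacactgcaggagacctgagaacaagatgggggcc
Igfbp2, chr1:72770298-72770377: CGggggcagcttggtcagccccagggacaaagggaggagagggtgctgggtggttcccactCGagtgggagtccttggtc
Elovl6, chr3:129533772-129533843: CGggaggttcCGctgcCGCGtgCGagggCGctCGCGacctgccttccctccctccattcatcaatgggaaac
Elovl6, chr3:129533917-129534014: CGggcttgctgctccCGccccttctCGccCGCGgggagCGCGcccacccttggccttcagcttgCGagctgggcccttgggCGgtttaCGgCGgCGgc
Elovl6, chr3:129534033-129534109: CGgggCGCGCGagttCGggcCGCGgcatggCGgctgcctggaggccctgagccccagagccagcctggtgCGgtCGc

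The last set is a CpG-rich stretch of 300 bp far upstream of Cebpb with levels between the extremes.
Cebpb, chr2:167597361-167597413: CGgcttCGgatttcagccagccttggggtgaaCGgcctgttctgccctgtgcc
Cebpb, chr2:167597443-167597517: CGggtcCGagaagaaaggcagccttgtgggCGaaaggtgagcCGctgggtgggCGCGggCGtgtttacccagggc
Cebpb, chr2:167597518-167597554: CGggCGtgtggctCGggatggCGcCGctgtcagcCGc
Cebpb, chr2:167597555-167597601: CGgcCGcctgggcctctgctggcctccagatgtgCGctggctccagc
Cebpb, chr2:167597606-167597660: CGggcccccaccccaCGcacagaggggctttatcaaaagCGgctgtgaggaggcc

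Perinatal DDT was compared with VEH to ask whether exposure had altered methylation at these genes by PND 12. No member fragment passed the adjusted threshold of 0.05 (F test across all fragments with Benjamini-Hochberg adjustment over all tested fragments, 0 of 75; background 0% of 20225), and the smallest adjusted p among them was 0.869. At an unadjusted p under 0.05 there was 1 of 75, a fragment upstream of Igfbp2, against a background of 4.18% of all tested fragments. By direction, 0 of 75 were lower in DDT and 1 of 75 was higher, against 2.93% and 1.25% of all tested fragments. Over the 75 fragments, 39 were higher in DDT and 36 were lower, and the median difference was 0.0191 percentage points, against -0.163 over all tested fragments, of which 56.9% were lower in DDT. The differences ran from -11.5 to 9.66 percentage points, and 11 of 75 were over 5 points in size, or 14.7%, against 8.59% of all tested fragments. Without DDT replicate 4 it was 7 of 75, or 9.33%, against 6.17%. Limma on the log2 ratio also called 0 fragments at an adjusted p under 0.05 and 1 at an unadjusted p under 0.05 (background 3.51%), and a quasi-binomial regression on the calls 0 and 5 (background 7.72%). Without DDT replicate 4, 3 of 75 fragments had an unadjusted p under 0.05 (background 4.24%), and without DDT replicates 4 and 12 it was 4 of 72 (background 4.51%), with none at an adjusted p under 0.05.

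**Figure D1:**
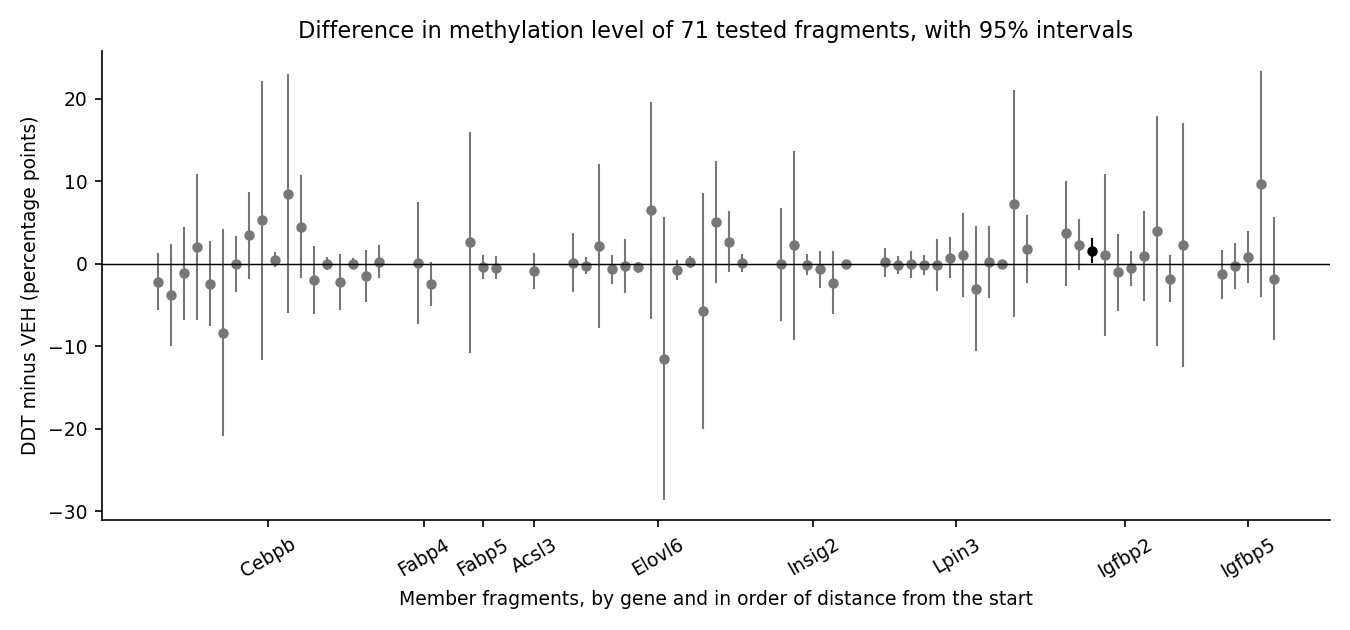
Difference in methylation level, DDT minus VEH in percentage points, for 71 of the 75 tested member fragments, grouped by gene and ordered by distance from the transcription start, with 95% intervals. The interval excludes 0 only for the Igfbp2 fragment drawn in black, at 1.62 points, and the widest interval, from -28.5 to 5.51 points, is that of an Elovl6 fragment whose libraries were widely spread in both groups.

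Cebpb (chr2:167688915-167690418, + strand) had 18 tested fragments of 30. The 11 fragments from 287 bp before to 1204 bp after its start, with 170 CpGs among them, had mean VEH levels of 0% to 7.38%, all under 10%, and the authors' annotation puts them on or within 2 kb of a CpG island. A gene model of Tmem189 overlaps this stretch. The fragment over the start, chr2:167688876-167688988, which spans the first exon's untranslated part, held no methylated call among 301 in 10 VEH libraries. With independent calls this allows a level of up to 0.997%. Several calls can share a read, so that limit can be too low.

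In DDT, the same fragment at the Cebpb start ranged from 0% to 72.7%, with a median of 0% (n = 11). Of these DDT libraries, 4 were above 0%: replicate 2 at 72.7%, replicate 12 at 12.9%, replicate 5 at 6.12% and replicate 6 at 1.94%, while the other 7 were at 0% like all 10 VEH libraries. The difference of 8.51 percentage points (95% interval -5.87 to 22.9) did not pass the permutation test (two-sided, p = 0.112), and it was 2.09 without DDT replicate 2. The next fragment, chr2:167688989-167689175, had the smallest p of the gene. It was at 0.812% ± 1.80 (SD, n = 10) in VEH against 5.29% ± 9.01 (SD, n = 9) in DDT, higher by 4.47 percentage points (exact permutation test, two-sided, p = 0.217). Replicates 2 and 12 were again the highest DDT libraries there, at 22.6% and 18.8%, both groups had a median of 0%, and without replicate 2 the difference was 2.31 percentage points. These fragments had a median of 29 CpG calls per library, so that 1 methylated call moved the level by a few points. They hold 20 and 28 CpGs, so 1 read can carry several calls and move the level further.

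The deeper fragment printed above for Cebpb, 61 bp before the start with a median of 1010.5 calls, gave a narrower answer. It was between 0.209% and 2.24% in the VEH libraries (median 0.750%) and between 0.103% and 3.52% in DDT (median 1.04%). The groups overlapped, and the difference was 0.519 percentage points (95% interval -0.224 to 1.26). With all calls of the 11 fragments summed per library, the level around the start was 2.03% ± 0.205 (SD, n = 12) in VEH against 2.37% ± 0.582 (SD, n = 12) in DDT.

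Further from the gene, levels varied. A fragment 99.5 kb upstream, with 1 CpG, was at 9.82% ± 3.49 (SD, n = 12) in VEH against 7.68% ± 4.31 (SD, n = 11) in DDT, whereas one 12.6 kb upstream was at 93.4% ± 4.08 (SD, n = 12) in VEH against 93.4% ± 3.03 (SD, n = 10) in DDT. The 5 fragments printed above, 91.3 to 91.5 kb upstream and within the processed transcript Gm11476, held 22 CpGs in 300 bp, and their 1 kb windows held 53 to 55 CpGs. Despite that density they had intermediate mean VEH levels, from 25.6% to 62.1%, where the 44 member fragments with at least 50 CpGs in the window had a median of 3.72% and all tested fragments of that density a median of 4.01%. Of the 10519 tested fragments of that density, 266 had a mean VEH level between 20% and 60%.

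The order of levels along that stretch repeated from litter to litter. The first fragment was above the second in 23 of 23 libraries with both, by a median of 37.7 percentage points, and the third was above the fourth in 24 of 24, by a median of 10.1 points. The second lay below the third in 22 of 23 libraries. In calls summed over the 5 fragments, the level was 38.4% ± 3.82 in VEH and 37.8% ± 4.75 in DDT (SD, n = 12 each), so the groups differed by less than the spread between libraries. The largest difference was at the last fragment, with a median of 52 calls, which was at 48.5% ± 15.4 (SD, n = 12) in VEH against 40.2% ± 13.1 (SD, n = 11) in DDT (95% interval of the difference -20.8 to 4.13 percentage points).

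**Figure D2:**
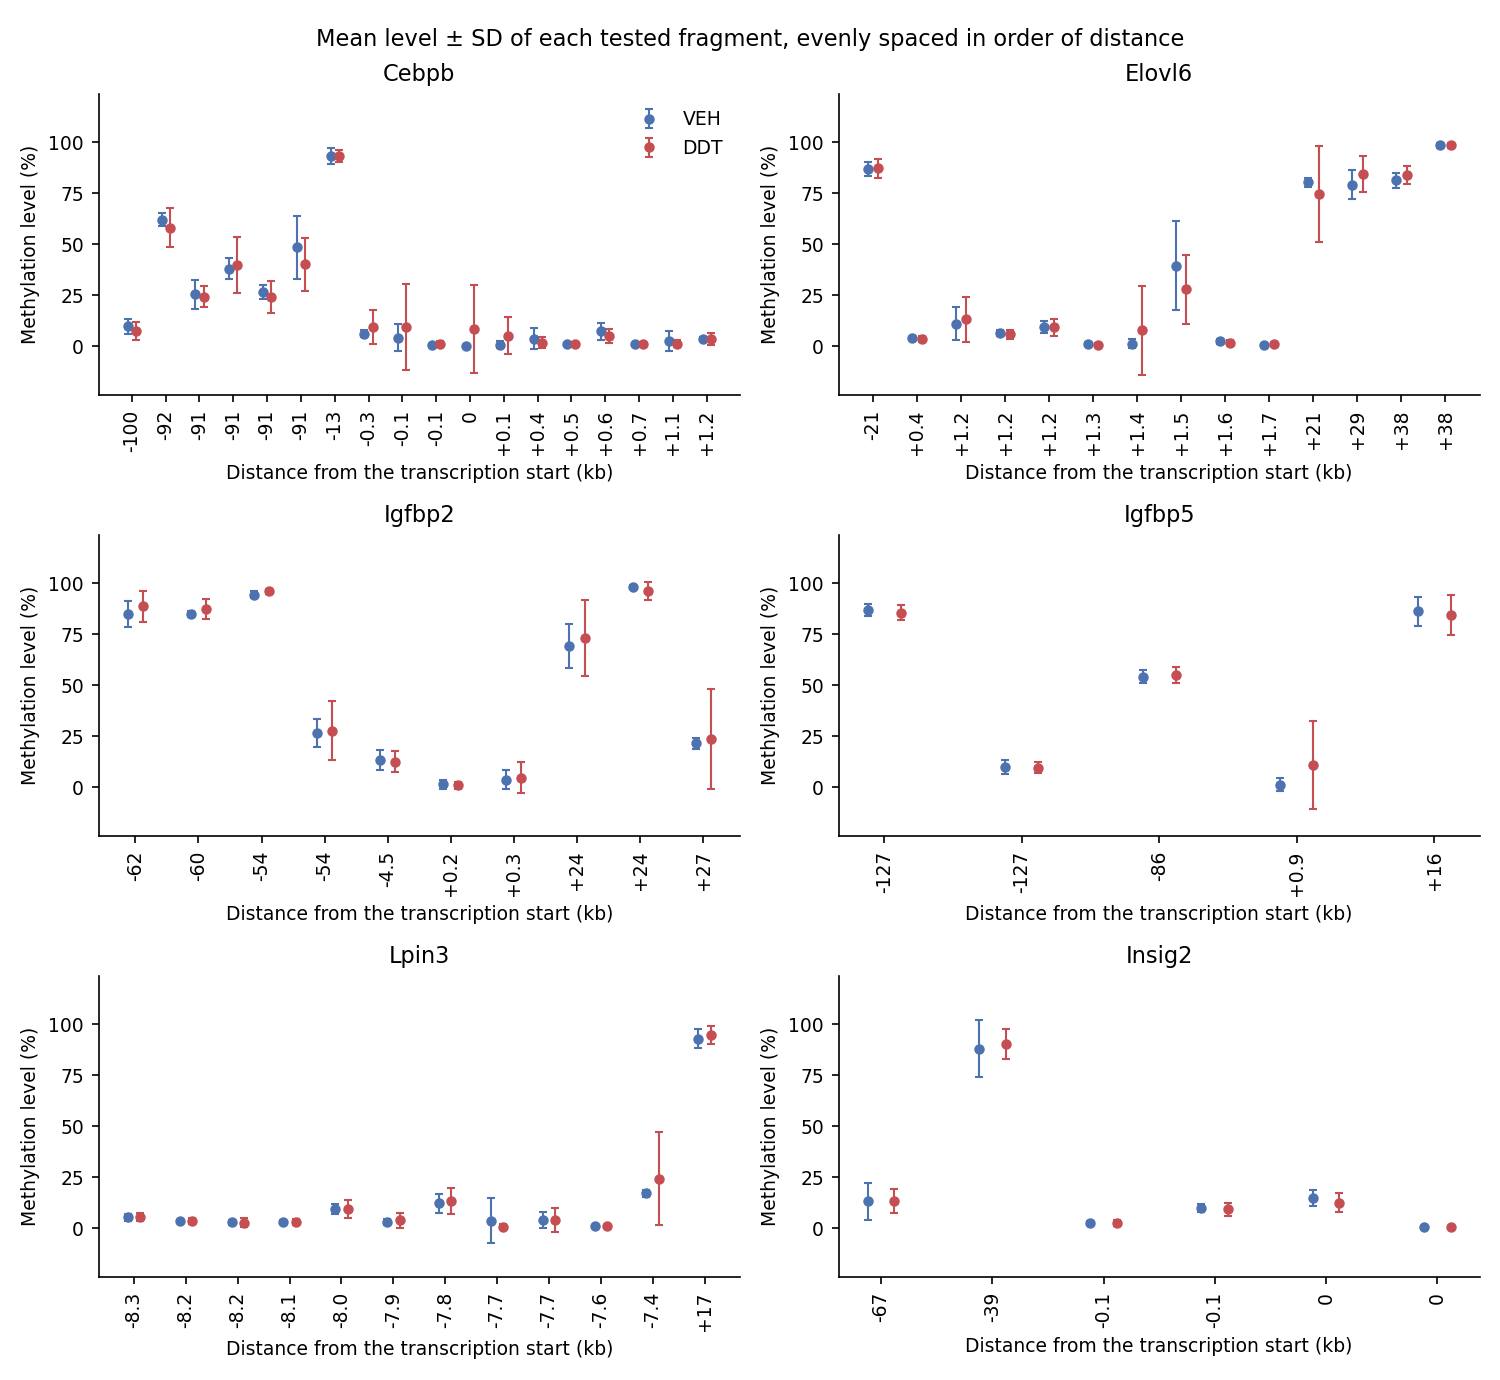
Mean methylation level with SD of the tested fragments of the 6 members with at least 5 of them, without 4 of Elovl6 that are not reported here, in VEH (blue) and DDT (red). The horizontal axis gives the distance from the gene's own transcription start in kb, with fragments evenly spaced rather than to scale. VEH means near the starts of Cebpb, Igfbp2 and Igfbp5 lie between 0% and 7.38%, and DDT means there reach 10.995%, at Igfbp5. VEH means deep in Elovl6, Igfbp5 and Lpin3 lie between 79.3% and 98.5%, and the 5 fragments 91 kb before Cebpb lie between.

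Fabp4 (chr3:10204088-10208576, - strand), the adipocyte fatty acid carrier, had 2 tested fragments of 5, each with 1 CpG. The one nearest the start, 167 bp into the gene and printed above, lies in an intron by the authors' annotation and in an exon of a further transcript in GENCODE M21. It was between 5.88% and 13.7% in the VEH libraries (median 10.3%) and between 0% and 11.2% in DDT (median 8.18%). Of the 12 DDT libraries, 9 were below the VEH median, and the groups overlapped. The difference of -2.44 percentage points (95% interval -4.95 to 0.0779) had p = 0.0548 in the two-sided permutation test. DDT replicate 4 was at 0% with 320 calls, and without it the difference was -1.75 percentage points (F test, unadjusted p = 0.109). A second fragment, 22.6 kb upstream, was at 48.0% ± 6.29 in VEH and 48.1% ± 10.4 in DDT (SD, n = 12 each). DDT replicate 4 was at 70% there with 10 calls. Without it the DDT mean was 46.1% ± 8.18 (SD, n = 11) and the difference -1.92 percentage points.

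Fabp5 (chr3:10012548-10016607, + strand), the epidermal fatty acid carrier, which fat cells also express, had 3 tested fragments of 30. The fragment 66 bp before the start was at 1.29% ± 1.75 in VEH and 0.878% ± 1.42 in DDT (SD, n = 12 each), and the highest library of either group was at 4.84%. The difference was -0.416 percentage points (two-sided permutation test, p = 0.531). The fragment with the smallest p, 305 bp into the gene, was at 1.25% ± 1.83 in VEH and 0.780% ± 1.14 in DDT (SD, n = 12 each; permutation test, two-sided, p = 0.472). Both start fragments therefore sat near 0% in all 24 libraries. A fragment 91.6 kb upstream, with 1 CpG, was at 64.3% ± 16.3 (SD, n = 12) in VEH against 66.9% ± 12.7 (SD, n = 10) in DDT.

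Acsl3 (chr1:78657825-78707743, + strand) had a single fragment in the table, chr1:78695071-78695126, in an intron 37.2 kb past the start. It was between 92.4% and 97.9% in VEH and between 89.3% and 100% in DDT, with medians of 95.2% and 94.8%. There were 6 DDT libraries above the VEH median and 6 below. The difference was -0.829 percentage points (two-sided permutation test, p = 0.422), -1.34 without DDT replicate 4, the library at 100%, and -0.367 without DDT replicate 12. The promoter of this acyl-CoA synthetase gene was not covered.

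Elovl6 (chr3:129532355-129638495, + strand), the elongase that turns palmitate-length chains into stearate-length chains, had 18 tested fragments of 50. In the first 1.72 kb of the gene, 9 fragments with 57 CpGs had a median VEH level of 3.91%, and 7 of 9 were under 10%. The authors' annotation names no island near them, although the 1 kb windows around them held 48 to 87 CpGs. The fragment nearest the start, in the first intron and 413 bp past the start, was at 3.91% ± 0.790 in VEH and 3.68% ± 1.28 in DDT (SD, n = 12 each; permutation test, two-sided, p = 0.651), with a median of 1208.5 calls per library. Without DDT replicate 4, which was at 0%, the difference turned from -0.234 to 0.101 percentage points.

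A fragment of this intron stood out, chr3:129533917-129534014, with 12 CpGs. Its VEH libraries ran from 13.3% to 82.1% with a median of 37.1%, and its DDT libraries from 0.183% to 55% with a median of 32.4%. Its neighbours on either side, printed above, were at 1.36% ± 2.06 and 2.59% ± 1.21 in VEH (SD, n = 12 each). It was above the following fragment in 23 of 23 libraries with both, and above the preceding one in 22 of 23. The SD of 21.7 percentage points in VEH was the widest of any member fragment in that group. DDT minus VEH was -11.5 percentage points (95% interval -28.5 to 5.51), and -8.71 without DDT replicate 4 (F test, unadjusted p = 0.297). The fragment had a median of 39 calls per library.

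Further into Elovl6, 20979 to 38017 bp past the start, 4 intronic fragments had mean VEH levels of 79.3% to 98.5%. The last of them, chr3:129570403-129570541, was the most methylated of all member fragments, at 98.5% ± 1.17 (SD, n = 12) in VEH against 98.6% ± 1.17 (SD, n = 11) in DDT (permutation test, two-sided, p = 0.841). The fragment that ends where it begins was at 81.5% ± 3.71 (SD, n = 12) in VEH, lower in 23 of 23 libraries with both.

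Insig2 (chr1:121304353-121332589, - strand) had 6 tested fragments of 11, and 4 of them lay side by side at a downstream transcription start of the gene. The fragment over this start, chr1:121327746-121327805, was at 0.556% ± 0.387 in VEH and 0.576% ± 0.454 in DDT (SD, n = 12 each), with a median of 1661 calls (permutation test, two-sided, p = 0.909). The fragment that adjoins it within the untranslated exon had the smallest p. It was between 9.52% and 24.4% in VEH (median 14.2%) and between 4.71% and 20.2% in DDT (median 12.8%), and the difference was -2.31 percentage points (permutation test, two-sided, p = 0.211). The levels of the 4 fragments alternated: the start fragment was below its neighbour on one side in 23 of 23 libraries and below that on the other side in 24 of 24. Fragment length alternated too. The 2 higher fragments were 43 and 38 bp long, under the read length of 50 bp, and the 2 lower ones were 60 and 55 bp long. The part of length in these levels was not tested. The 1 kb windows held 58 to 60 CpGs, while the nearest island of the authors' annotation was 200058 bp away or further.

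Lpin3 (chr2:160880670-160906002, + strand) had 12 tested fragments of 16, but 11 of these lay 7412 to 8282 bp before it, in the CpG island at the start of its neighbour Zhx3. Their mean VEH levels were 1.18% to 17.2%, and 9 of 11 were under 10%. Summed over the 11 fragments, the level was 4.03% ± 0.253 in VEH and 4.15% ± 0.472 in DDT (SD, n = 12 each). The fragment nearest Lpin3, chr2:160873074-160873258, also had the smallest p, with 14.2% to 20.2% in VEH and 12.9% to 96.1% in DDT and a difference of 7.30 percentage points (permutation test, two-sided, p = 0.193). That value rested on DDT replicate 4, at 96.1% with 334 calls, and without it the difference was 0.790 percentage points (F test, unadjusted p = 0.390). The fragment in the gene itself, 16.9 kb past the start, was at 93.0% ± 4.71 (SD, n = 12) in VEH against 94.8% ± 4.24 (SD, n = 10) in DDT.

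**Figure D3:**
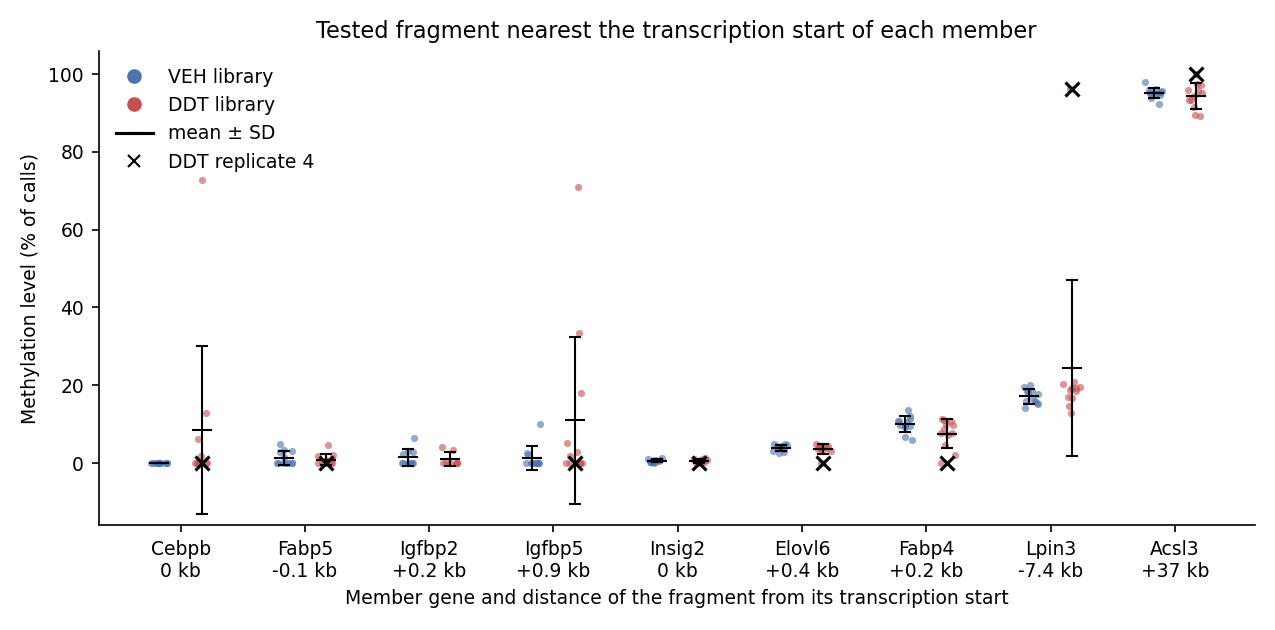
Methylation level, in percent of calls, in every library with a level at the tested fragment nearest the transcription start of each of the 9 members, with mean and SD for VEH (blue) and DDT (red) and a cross for DDT replicate 4. VEH means lie under 4% at 6 members, at 10.04% at Fabp4, 17.2% at Lpin3 and 95.2% in the Acsl3 intron, and single DDT libraries reach 72.7% at Cebpb, 70.9% at Igfbp5 and 96.1% at Lpin3.

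Igfbp2 (chr1:72824503-72852474, + strand) had 10 tested fragments of 20, of which 7 were higher in DDT, against 8726 of 20225 over all tested fragments. The last-exon fragment was among the 7 only with DDT replicate 4 included. Near the start, Igfbp2 was almost free of methylation. The fragment 166 bp into the first exon, with 16 CpGs, was at 1.497% ± 2.20 (SD, n = 10) in VEH against 0.955% ± 1.78 (SD, n = 8) in DDT (exact permutation test, two-sided, p = 0.662), and the next one, with 13 CpGs, was at 3.87% ± 4.50 in VEH and 4.80% ± 7.64 in DDT (SD, n = 12 each).

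The only member fragment at an unadjusted p under 0.05 lay 54.2 kb upstream of Igfbp2, chr1:72770251-72770297, outside any gene model, and was 47 bp long. It was between 91.7% and 97.1% in VEH (median 94.8%) and between 94.0% and 98.7% in DDT (median 96.4%). The ranges overlapped, and 9 of 11 DDT libraries were above the VEH median. The difference was 1.62 percentage points (95% interval 0.242 to 2.99; permutation test, two-sided, p = 0.0238; adjusted p = 0.869 by the F test across all fragments). DDT replicate 4 had 5 calls there and no level, and with a minimum of 5 calls it entered at 80% and the difference was 0.271 percentage points (unadjusted p = 0.857).

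The adjoining fragment, chr1:72770298-72770377, was far less methylated, at 26.7% ± 6.80 (SD, n = 12) in VEH against 27.8% ± 14.5 (SD, n = 11) in DDT. The highest DDT library there was replicate 12, at 65.5%. Without DDT replicates 4 and 12 the difference turned from 1.05 to -2.73 percentage points. The first fragment was above the second in 23 of 23 libraries with both, by 30.8 to 90.1 percentage points. Each holds 2 CpGs, as their sequences show, and a level covers both of them.

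At the other end of Igfbp2, the levels again changed over a short distance. A fragment 24.4 kb past the start was at 98.2% ± 0.814 in VEH, whereas a fragment in the last exon, chr1:72852054-72852084, was at 21.6% ± 2.91 (SD, n = 12 each). In DDT the last-exon fragment ran from 7.83% to 99.1%, with a median of 16.3%, and 9 of 12 libraries were below the VEH median of 20.4%. DDT replicate 4 was the library at 99.1%, with 115 calls. With it the DDT mean was 23.8% ± 24.3 (SD, n = 12) and the difference 2.24 percentage points (F test, unadjusted p = 0.754). Without it the mean was 16.9% ± 5.66 (SD, n = 11) and the difference turned to -4.60 percentage points (unadjusted p = 0.0215, adjusted p = 0.901). DDT replicate 12 was at 30.8% with 13 calls. Without DDT replicates 4 and 12 the difference was -5.99 percentage points (F test, unadjusted p = 0.000288). In that setting no member fragment had an adjusted p under 0.949.

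Igfbp5 (chr1:72857932-72874884, - strand) had 5 tested fragments of 23. The fragment nearest its start, in the coding part of the first exon 896 bp past the start, was also the one with the smallest p. It was at 1.33% ± 3.06 (SD, n = 11) in VEH against 10.995% ± 21.4 (SD, n = 12) in DDT, the largest positive difference of any member fragment, which did not pass the test (9.66 percentage points, 95% interval -3.93 to 23.3; permutation test, two-sided, p = 0.140). The highest DDT libraries were few: replicate 3 at 70.9%, replicate 9 at 33.3% and replicate 6 at 18.0%. Of the 12 DDT libraries, 6 were at 0%, as was the VEH median, and the highest VEH library was at 10.1%. Without DDT replicate 3 the difference was 4.22 percentage points, and it was then no longer the largest. The median was 36 calls per library.

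Far upstream of Igfbp5, a pair of adjoining fragments 127 kb away, within the antisense transcript 1700027A15Rik and nearest to the start of Tnp1, differed as those of Igfbp2 did. The first, chr1:73002143-73002179, was at 10.04% ± 3.42 (SD, n = 12) in VEH against 9.75% ± 2.65 (SD, n = 11) in DDT, and the second, chr1:73002180-73002368, at 86.9% ± 2.87 (SD, n = 12) and 85.6% ± 3.72 (SD, n = 11). The second was higher in 23 of 23 libraries with both. A fragment 85.7 kb upstream was at 54.4% ± 3.18 in VEH and 55.2% ± 3.90 in DDT (SD, n = 12 each), and one in the 3′ part of the gene, 16.4 kb past the start, was at 86.3% ± 7.15 in VEH.

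Asip had no row under that symbol. Its fragments are listed under "a", a symbol for which RefSeq gives ASIP as a synonym. There were 6 such rows, 3 of them with any call, and no library had more than 3 calls in a row, so 0 of 6 were tested and no level is given.

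Across the members, CpG density and position went with the level. Of the 75 tested fragments, 30 lay within 2 kb of the member's own start and 30 lay over 20 kb away, and for 31 the nearest coding start belonged to another gene. The 44 fragments with at least 50 CpGs in the 1 kb window had a median VEH level of 3.72%, the 5 with 30 to 49 CpGs one of 9.82%, and the 26 with fewer CpGs one of 80.95%. The same medians over all tested fragments were 4.01%, 18.3% and 80.1%. The members thus covered the range that the table covers, and no test of a difference was made.

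Fragment length also moved with the level among CpG-poor fragments. The reads were 50 bp long, so a read can run through a fragment of 50 bp or less to its far end, where end repair fills the cut site with cytosines that carry no methyl group. Over all tested fragments with 1 CpG and under 30 CpGs in the 1 kb window, the median VEH level was 45.1% for the 1695 fragments of 50 bp or less and 93.0% for the 640 longer ones. With 2 CpGs, the medians were 67.0% and 88.6%. There were 9 member fragments of the first kind, at 10.04% to 79.3%, among them both of Fabp4, the last-exon fragment of Igfbp2, the lower one of the pair upstream of Igfbp5 and the fragment far upstream of Fabp5. The 2 longer ones, in Igfbp2 and Elovl6, were at 98.2% and 98.5%. The part of length in the member levels was not tested. The low fragment of the pair upstream of Igfbp2 was 80 bp long, but it begins where its neighbour of 47 bp ends. A read through that neighbour can reach the cut site between them, so filled cytosines can be counted in the 80 bp fragment. Their share there was not tested. The intermediate fragment of Elovl6 was 98 bp long, and 3 of the 5 fragments in the stretch upstream of Cebpb were over 50 bp. Comparisons between VEH and DDT set a fragment against itself. Among the 49 member fragments over 50 bp, 0 had an unadjusted p under 0.05, against 4.1% of all tested fragments of that length.

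**Figure D4:**
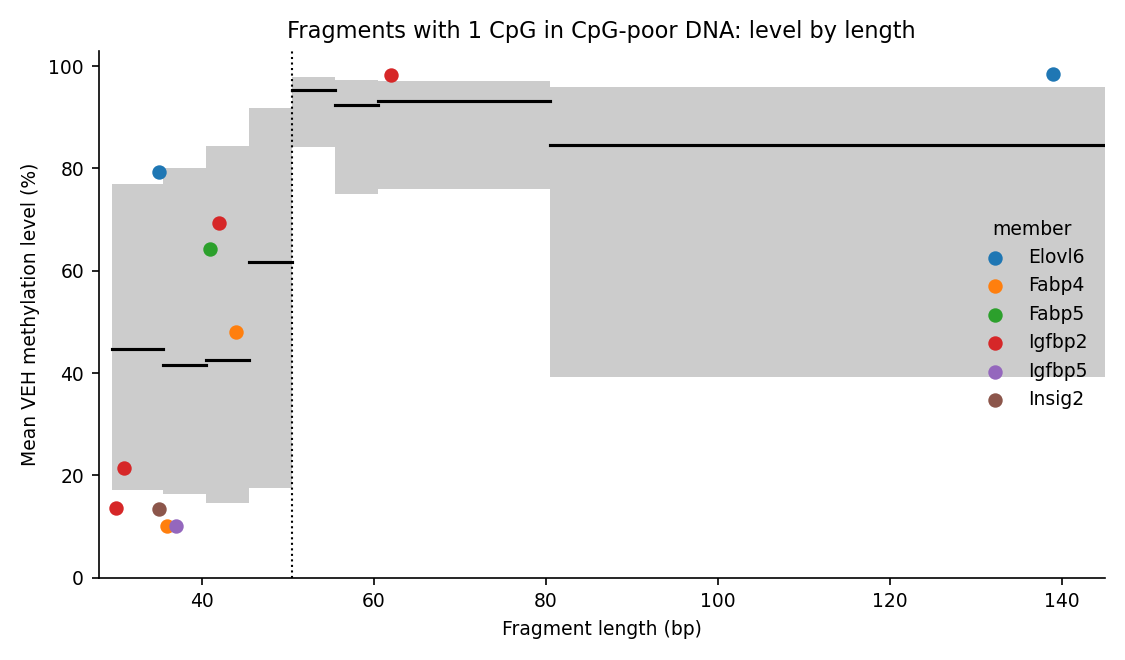
Mean VEH methylation level in percent against fragment length in bp, for tested fragments with 1 CpG and under 30 CpGs in the 1 kb window. Black lines and grey boxes give the median and the quartiles of all such fragments by length class, points are the member fragments, and the dotted line marks the read length of 50 bp. The class medians lie between 41.7% and 61.7% up to 50 bp and between 84.6% and 95.4% beyond, and the 9 shorter member fragments lie at or below 79.3%.

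DDT replicate 4 lay outside the range of all other libraries at 28 of its 42 member fragments, against 0 to 14 fragments in the other libraries. Its levels tended to the extremes: of the 26 fragments where the other libraries had a median between 2% and 90%, it was under 1% or over 95% at 15, against 0 to 3 such fragments in any other library. The departures ran both ways. It was at 75.8% with 186 calls in the first intron of Elovl6, where the other 23 libraries were at 0% to 12.1%, and at 1.22% with 737 calls further into the gene, where they were at 70.1% to 89.2%. In the stretch upstream of Cebpb it was at 81.3% in the third fragment and 0% in the fourth, which adjoin, where the others were at 30.6% to 45.7% and 21.5% to 31.7%.

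**Figure D5:**
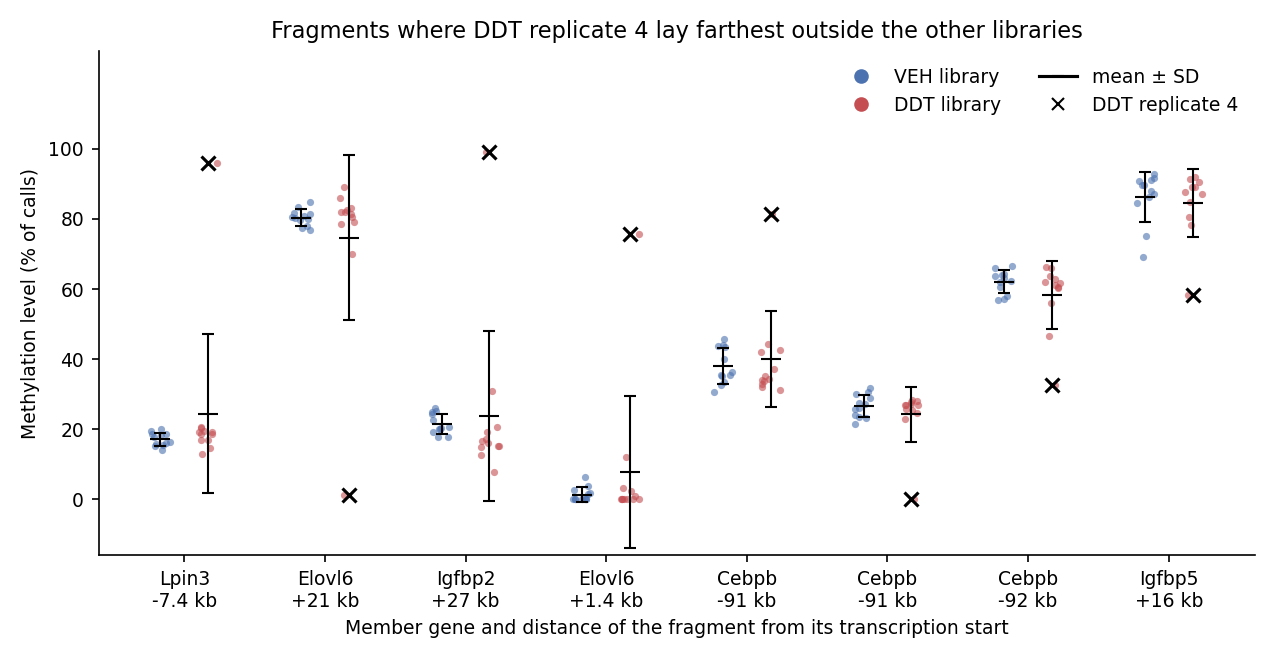
Methylation level in percent of calls in every library, with mean and SD for VEH (blue) and DDT (red), at the 8 of the 71 plotted member fragments where DDT replicate 4 (cross) lay farthest outside the range of the other libraries. It lies above them at 4 fragments and below them at 4, and the DDT mean and SD move with it.

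The wider lipid and adipogenic pathways, from 6 lists of 140 genes in all, had 153 tested fragments for 26 genes. At an unadjusted p under 0.05 there were 4 of 153, 2 lower and 2 higher in DDT, against 4.18% of all tested fragments, and none passed the adjusted threshold. Of the adipogenic factors, 1 of 65 fragments was lower, in an intron of Bmp7, a BMP ligand that promotes brown fat differentiation, at 96.2% ± 3.40 (SD, n = 10) in VEH against 89.5% ± 4.36 (SD, n = 8) in DDT (adjusted p = 0.869 in the fit across all fragments). Of the IGF system, 1 of 11 was lower, in Irs1, the docking protein of the insulin and IGF receptors, at 5.45% ± 1.41 (SD, n = 12) and 3.95% ± 1.11 (SD, n = 11). Of fatty acid synthesis, elongation and sterol control, 1 of 5 was higher, in Hsd17b12, an enzyme of fatty acid elongation, at 97.6% ± 2.56 (SD, n = 12) in VEH against 99.6% ± 0.715 (SD, n = 9) in DDT. Of melanocortin signalling, 1 of 27 was higher, 395132 bp upstream of the receptor gene Mc3r, at 23.5% ± 5.71 (SD, n = 12) and 30.3% ± 7.17 (SD, n = 10), in a fragment of 32 bp. Those of Irs1 and Hsd17b12 were 47 bp long each, also under the read length, and that of Bmp7 was 92 bp.

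Neither of the remaining lists had a fragment at an unadjusted p under 0.05. The smallest p among the 24 fragments of fatty acid uptake, binding and activation was that of Slc27a2, a fatty acid transporter, at 97.8% ± 1.41 (SD, n = 12) in VEH against 98.9% ± 1.22 (SD, n = 10) in DDT. Among the 21 of triglyceride synthesis and lipolysis it was that of Pck1, which supplies the glycerol backbone, at 64.2% ± 9.48 (SD, n = 12) and 56.2% ± 11.8 (SD, n = 9). The 4 fragments named with an unadjusted p under 0.05 had no level in DDT replicate 4.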

How the data were processed

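RRBS libraries of BAT from 24 litters were analysed, 12 VEH and 12 DDT, grouped by the labels. The library label of DDT replicate 12 is out of sequence with those of the other libraries, and the labels do not say why. The authors trimmed 50 bp single-end reads with Scythe and Sickle, aligned them to GRCm38 with Bismark 0.15.0 and Bowtie 2, and deposited, per MspI fragment, raw counts of the methylated CpG calls and of those not methylated, with a gene name, a region class and distances. Whether bases added during end repair were removed is not given in the sources used here. The table held 65535 fragments and stopped at position 136670346 of chromosome 3.

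From these counts, the level of a fragment was 100 times its methylated calls over all its calls, in libraries with at least 10 calls. A fragment was tested with at least 8 levels per group, by the ANOVA F test of the study's statistics section, with Benjamini-Hochberg adjustment over all 20225 tested fragments and a threshold of 0.05. The 95% intervals use the pooled variance of that fit. Named fragments also had a two-sided permutation test, with 100000 resamples, or exact where a group had fewer than 10 levels. The intervals therefore include the spread between libraries. The limit on a level of 0 covers counting error only and treats calls as independent. PCR copies were not marked, and calls can share a read. Gene models were GENCODE M21 and CpGs were counted in the GRCm38 sequence. No strand of the calls was given. The members and gene lists were chosen with earlier results of these data known. Named were, per member, the tested fragment nearest the start and the one with the smallest p, every fragment at an unadjusted p under 0.05, the fragments with the highest and lowest VEH level, and the gene with the smallest p per list. The smallest-p fragment of Elovl6 and 3 others assigned to that gene are counted in the totals but not reported singly here. Other fragments in the text were chosen after their values were seen. Alternatives were a quasi-binomial regression, limma 3.58.1 on log2((methylated + 1) / (not methylated + 1)), minimums of 1, 5 and 20 calls, a level required in every one of the 24 libraries, the logarithm of total calls as a covariate, a replicate block, members taken by position within 5000 bp of the gene, each library left out, and DDT replicates 4 and 12 left out. Fragments over 50 bp were added after the data were seen. The F test, the quasi-binomial regression, limma, the covariate and the replicate block were checked on simulated calls. The permutation tests were not. No pair of libraries had identical counts, and the lowest mean chi-square per fragment was 1.89, for VEH replicate 12 and DDT replicate 11. Software was R 4.3.3 and, in Python 3.11.15, SciPy 1.17.1, NumPy 2.4.6, matplotlib 3.10.9 and pandas 2.3.3.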

Additional observations from a re-analysis of the deposited data

Results flagged for a closer look

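Among the tested member fragments, 19 groups of 8 to 10 libraries could be searched for an outlying library. By Dixon's criterion, 5 held a library far from the rest of its group. The criterion's chance rate of about 1 in 20 is for normally distributed values. In the flagged groups the other libraries had a median of 3.3% or less, near the lower bound of a level, except at the Igfbp2 fragment at 72849175, with 82.6%. That rate therefore cannot show whether 5 is an excess. At the Igfbp2 fragment starting at 72824669 on chromosome 1, VEH replicate 6 was at 6.45% with 62 calls, and the next VEH library was at 3.23%. At the Igfbp2 fragment at 72849175, DDT replicate 5 was at 30% with 10 calls, and the next lowest DDT library was at 68.8%. At the Lpin3 fragment at 160872875 on chromosome 2, DDT replicate 12 was at 3.49% with 602 calls, and the next was at 1.69%. At the Cebpb fragment at 167688648, DDT replicate 10 was at 61.5% with 39 calls, and the next was at 3.85%. At the Cebpb fragment at 167689329, DDT replicate 2 was at 8.93% with 56 calls, and the next was at 2.70%. Fragments with more than 10 libraries per group, which include those where DDT replicate 4 departed most, were not searched in this way.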

How the results depend on the processing

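Under every alternative run, 0 member fragments passed the adjusted threshold. The count of 1 at an unadjusted p under 0.05 was 5 with the quasi-binomial regression (background 7.72% of all tested fragments), which exceeded its nominal rate on simulated calls, and 4 without DDT replicates 4 and 12 (background 4.51%). It was 0 with minimums of 1 or 5 calls, with a level in all 24 libraries, within 5000 bp of the genes and, as chosen after seeing the data, over 50 bp (backgrounds of 4.09% to 4.24%). Leaving out each library gave 1 to 3 (backgrounds of 3.7% to 5.38%), with 3 without DDT replicate 4 or 11 and 2 without VEH replicate 4 or 8 or DDT replicate 1, 6, 8, 9, 10 or 12. The median difference ran from -0.0546 to 0.0972 percentage points with a library left out and was -0.128 with a minimum of 20 calls, and moved by less than the spread of 0.487 between VEH libraries under all its alternatives. No smallest-p fragment of the other members changed direction. The replicate numbers did not pair the litters: same-numbered libraries had correlations of their deviations from -0.180 to 0.199, above 0.1 in 3 of 12 pairs, and 1 of 12 VEH libraries correlated best with its own number. With the replicate block, the counts were 0 and 1. The fragments nearest the starts of Cebpb, Igfbp2 and Igfbp5 had medians of 29, 38 and 36 calls, so that 1 methylated call moved a level there by a few percentage points. A read can carry several calls and move it further.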
